A study of Mus musculus with 8 samples.

Results

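Genes in common use as internal references were examined in SCJ cancers and normal SCJ of the mouse stomach. The set was fixed by name, as the rows of the gene table with the symbols Actb, Actg1, Gapdh, Hprt, Tbp, Ppia, Gusb and Ywhaz, and all 8 were present among 23361 genes. The study deleted the tumor suppressor genes Trp53 and Rb1 in Lgr5+ cells and sequenced poly(A) RNA of the tumors that arose at the SCJ, the border between squamous and glandular epithelium of the stomach. The cancer group held 5 tumors labelled Trp53-/-Rb1-/-, from tamoxifen-treated mice with Lgr5eGFP-Ires-CreERT2, floxed Trp53 (loxP/loxP), floxed Rb1 (loxP/loxP) and the Ai9 reporter, with the tumor border drawn by tdTomato fluorescence. The control group held the SCJ of 3 wild-type stomachs from age-paired mice. Cre was driven by the Lgr5 locus, so recombination was directed to Lgr5+ cells, whereas each sample was tissue with every cell type it contained. The labels do not say that each sample came from a separate animal, so p-values measure the spread between these samples.

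A reference gene is used to correct for the amount of material: its level is taken as constant, and every other gene is divided by it. In this study β-actin had that role in qRT-PCR of organoids. The 8 genes serve unrelated parts of the cell. Actb and Actg1 encode the β and γ cytoplasmic actins, which build the filaments of the cell cortex. Gapdh is an enzyme of glycolysis, Hprt salvages the purines hypoxanthine and guanine, and Ppia is cyclophilin A, a prolyl isomerase that assists protein folding. Gusb is β-glucuronidase, a hydrolase of the lysosome. Tbp binds the TATA box as part of the general transcription factor TFIID, and Ywhaz is 14-3-3ζ, an adaptor that binds phosphorylated proteins.

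Levels were given as FPKM, fragments scaled by transcript length and by library, rounded to whole numbers by the authors. The depth of each library is unknown, so precision was judged from the replicates alone. FPKM summed to between 403569 and 573858 in the cancers and between 887141 and 992550 in the controls. The 10 most abundant genes of each library took 11.1% to 19.6% of that sum in the cancers, against 39.3% to 44.3% in the controls. Each comparison was therefore made on FPKM as deposited and again after every column had been rescaled to the same sum of 1000000 (TPM), and these data do not show which scale is right. A log2 fold change below is cancer minus control on the log2(value + 1) scale, with the standard error (SE) and adjusted p of limma over 14357 tested genes. The median log2 fold change of all tested genes was -0.04 on FPKM and 0.81 on TPM. Of the deleted genes, Trp53 had 12, 22, 12, 30 and 12 FPKM in the cancers, against 16, 17 and 19 in the controls (adjusted p = 0.87, limma), and on TPM it was higher in the cancers, with a log2 fold change of 0.86 (adjusted p = 0.020, limma). Rb1 had 4, 4, 5, 6 and 4, against 9, 9 and 10 (adjusted p = 0.0059, limma), although on TPM its log2 fold change was -0.05 (adjusted p = 0.84, limma). A level over the whole gene does not check a deletion of part of it.

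In mm10 coordinates, Actb lies on chromosome 5 from 142903115 to 142906724 and Gusb on the same chromosome from 129989020 to 130002828. Actg1 lies on chromosome 11 from 120345689 to 120348484 and Ppia on that chromosome from 6415869 to 6419810. Gapdh is on chromosome 6 from 125161851 to 125165583, Ywhaz on chromosome 15 from 36770261 to 36796929, Tbp on chromosome 17 from 15499887 to 15517427, and Hprt on chromosome X from 52988077 to 53021660. The locus of all 8 overlapped the RefSeq entry of the same symbol in GRCm38.p6.

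The actin pair is the closest among the 8 genes, and reads of the coding sequence must be told apart by scattered single bases. The untranslated parts of the 2 transcripts were not aligned. The coding sequences of Actb and Actg1, 1125 bases each without the stop codon, were identical at 997 positions (88.6%). The first 90 coding bases of each, both in exon 2 and both on the minus strand, are shown because they hold 16 of the differing bases, which are in capitals.
Actb, GRCm38 chr5:142905597-142905686: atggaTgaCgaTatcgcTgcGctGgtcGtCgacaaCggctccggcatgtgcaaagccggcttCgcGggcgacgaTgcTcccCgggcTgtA
Actg1, GRCm38 chr11:120348002-120348091: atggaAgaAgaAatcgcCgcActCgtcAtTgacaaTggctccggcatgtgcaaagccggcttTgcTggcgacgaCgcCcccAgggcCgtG

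Copies elsewhere in the genome also bear on how the reads of these genes could be assigned. Every run of 50 bases was taken from the GENCODE M21 transcript that matches the accession in the file, and looked up in the transcripts of all other genes. For Actg1, Gapdh and Ppia, 100% of the runs within the coding sequence were also found in another gene, and for Ywhaz 93.4%. For Actb this was 19.7%. For Hprt, Gusb and Tbp it was 0%. Gapdh shared runs with 218 other genes, Ppia with 36, Actg1 with 22, Actb with 18, Tbp with 4 (outside its coding sequence) and Ywhaz with 3. Of these other genes, 9 had a row for Gapdh, 2 for Ppia, 4 for Actg1, 3 for Actb, 2 for Tbp and 0 for Ywhaz. Over the whole transcript, the shared runs were 82.5% for Gapdh, 56.7% for Actg1, 40.5% for Ppia, 28.8% for Ywhaz and 14.2% for Actb. How reads with several matches were treated is not given in the sources used here. The levels of Actg1, Gapdh, Ppia and Ywhaz, and in part that of Actb, are uncertain to an extent that these shares do not measure.

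The reference genes covered a wide range of abundance. In the controls the order of mean FPKM was Actg1 (2469 ± 397, SD, n = 3), Actb (1764 ± 356), Ppia (1583 ± 266), Gapdh (675 ± 40.0), Ywhaz (298 ± 38.4), Hprt (104 ± 10.8), Gusb (14.3 ± 2.08) and Tbp (6.0 ± 1.0). The ranges of Actg1 and Actb overlapped in the controls, as did those of Actb and Ppia, whereas each lower step was a gap between ranges. In the cancers Ppia came first (1311 ± 463, SD, n = 5), followed by Actg1 (882 ± 383), Actb (865 ± 386), Gapdh (554 ± 178), Ywhaz (180 ± 37.6), Hprt (84.6 ± 12.6), Gusb (38.6 ± 11.8) and Tbp (9.2 ± 1.79). There the ranges of Ppia, Actg1 and Actb overlapped one another, and that of Gapdh overlapped those of Actg1 and Actb, but the 4 least abundant genes stood apart.

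**Figure D1:**
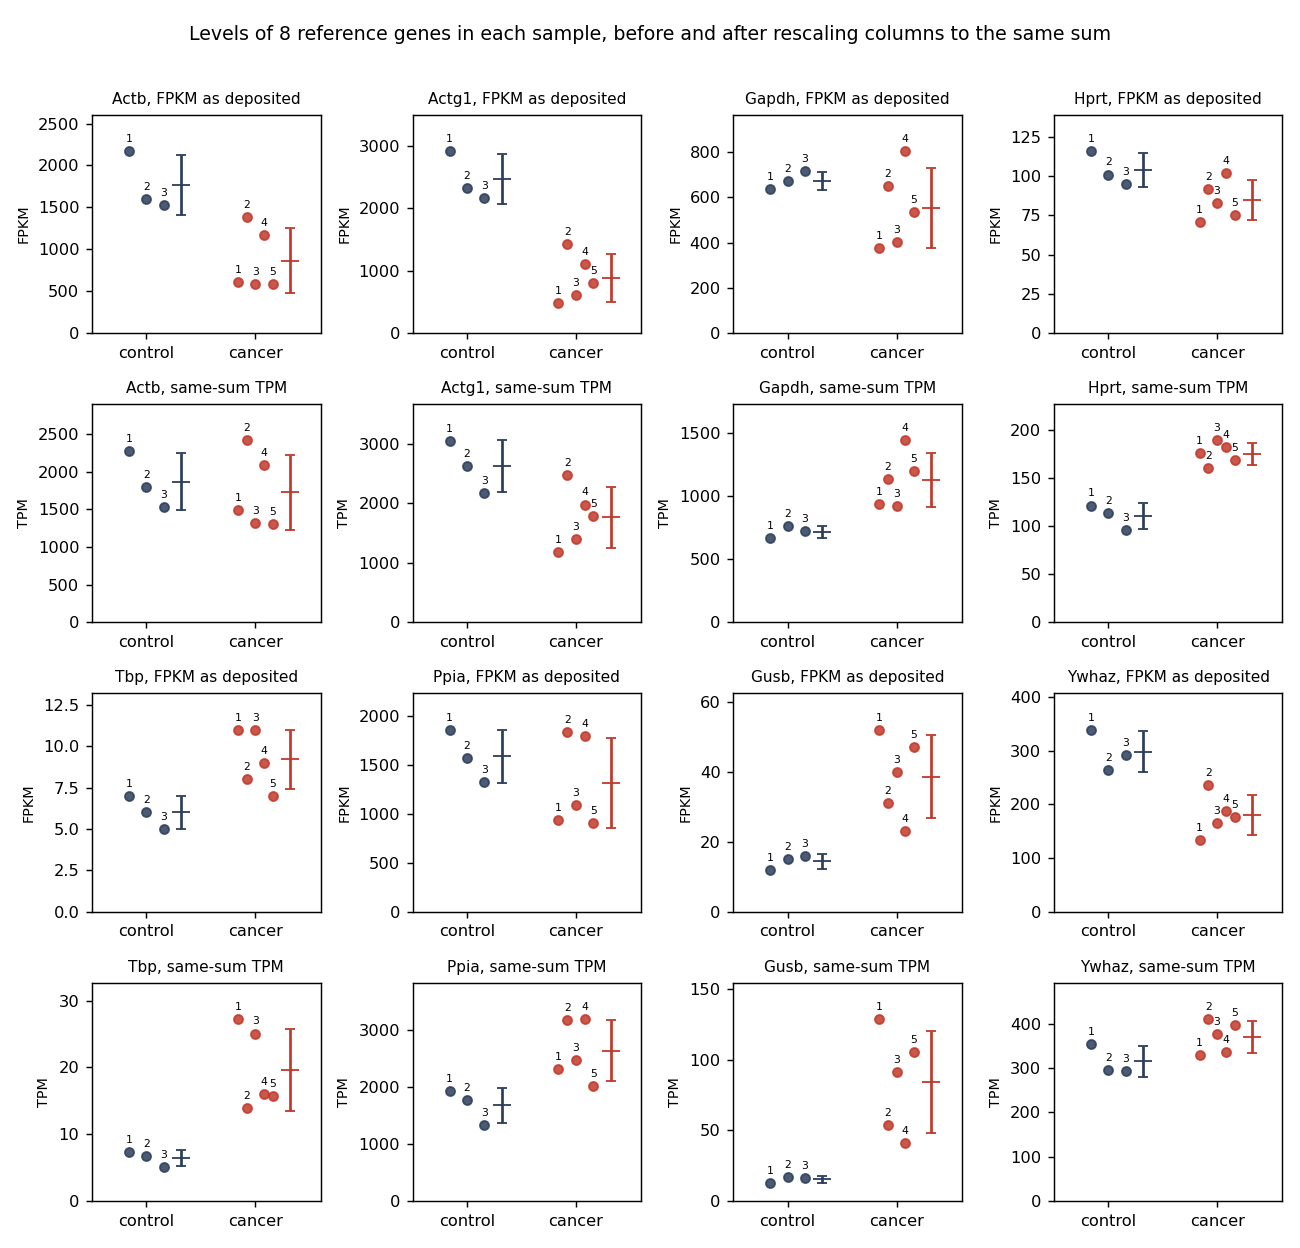
Level of each of the 8 reference genes in every sample, as deposited (FPKM) and after rescaling each column to the same sum (TPM), on axes from 0. Points are samples with their replicate number, and the bar beside them is the mean ± SD (n = 3 controls, n = 5 cancers). On FPKM the cancers lie below every control for Actb, Actg1 and Ywhaz and above every control for Gusb, and on TPM they lie above every control for Gapdh, Hprt, Tbp, Ppia and Gusb.

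Actg1, the γ actin, had FPKM of 473, 1420, 613, 1107 and 799 in cancers 1 to 5 and 2917, 2330 and 2160 in controls 1 to 3. All cancers lay below all controls, and cancers 2 and 4 were the highest of the cancers. Actg1 fell by 1.58 on the log2 scale (SE 0.39, adjusted p = 0.019, limma). The call was lost when any of the 3 controls was left out (adjusted p of 0.073, 0.058 and 0.051 without control 1, 2 and 3, limma). After rescaling the cancers had TPM of 1172, 2474, 1397, 1978 and 1792 and the controls 3052, 2626 and 2176, so that cancer 2 was inside the range of the controls. The log2 fold change of Actg1 was then -0.61 (95% interval -1.25 to 0.035, adjusted p = 0.097, limma). Without cancer 2 it was -0.74 on TPM (adjusted p = 0.042, limma).

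Actb, the β actin, was also below the controls in every cancer on FPKM. Its FPKM were 603, 1387, 581, 1172 and 581 in the cancers, against 2173, 1596 and 1522 in the controls, with cancers 2 and 4 again the highest of the cancers. The log2 fold change was -1.12 (SE 0.38, adjusted p = 0.056, limma), just short of the threshold of 0.05. It passed without cancer 2 (-1.32, adjusted p = 0.024, limma) or cancer 4 (-1.25, adjusted p = 0.043, limma). After rescaling, Actb had TPM of 1494, 2417, 1324, 2094 and 1303 in the cancers, against 2274, 1799 and 1533 in the controls. The groups overlapped, with a log2 fold change of -0.14 (95% interval -0.77 to 0.49, adjusted p = 0.68, limma). This reversed to 0.0093 when control 1 was left out.

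The muscle actins passed the test on neither scale in limma, and 0 of the 2 tested had an unadjusted p under 0.05. Of the 4 other actin genes, Actc1 was listed at 0 throughout and Acta1 stayed at or below 1 FPKM. Acta2, the smooth muscle α actin, had 12, 295, 101, 83 and 11 FPKM in the cancers, against 86, 69 and 87 in the controls, for a log2 fold change of -0.63 (adjusted p = 0.66, limma). Actg2, the enteric γ actin, had 2, 379, 144, 82 and 9 in the cancers, against 87, 47 and 136 in the controls, for a log2 fold change of -0.97 (adjusted p = 0.64, limma). Among the cancers both were highest in cancer 2, as were Actb and Actg1. The summed FPKM of the 8 smooth muscle markers ran from 47 to 1724 in the cancers and from 365 to 562 in the controls, and 0 of 8 passed the test in limma (0 with an unadjusted p under 0.05), where 34.5% of all genes were called on FPKM and 53.7% on TPM. The part of muscle tissue in the actin levels was not tested. In bulk tissue, fewer cells of a type and less RNA per cell cannot be told apart.

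Gusb, the lysosomal β-glucuronidase, had the opposite direction to the actins. It had FPKM of 52, 31, 40, 23 and 47 in the cancers, against 12, 15 and 16 in the controls. Every cancer lay above every control, and here cancers 2 and 4 were the lowest of the cancers. Gusb rose by a log2 fold change of 1.32 (SE 0.27, adjusted p = 0.010, limma) and reached the smallest p that the design allows in a two-sided exact permutation test (p = 0.018). It was past the threshold on both scales, with TPM of 129, 54.0, 91.2, 41.1 and 105 in the cancers, against 12.6, 16.9 and 16.1 in the controls. The log2 fold change on TPM was 2.28 (SE 0.37, adjusted p = 0.0020, limma). No single sample decided this call, since without each sample in turn the adjusted p was at most 0.047 on FPKM and 0.013 on TPM (limma).

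Other lysosomal hydrolases were examined beside Gusb. Of 16, 6 were higher and 2 lower in the cancers on FPKM, with a median log2 fold change of 0.23. Over all genes 16.2% were higher and 18.3% lower. Ids, the iduronate sulfatase, had 164, 40, 122, 109 and 154 FPKM in the cancers, against 9, 13 and 15 in the controls, for a log2 fold change of 3.04 (adjusted p = 0.0035, limma). Gaa, the acid α-glucosidase, rose to a mean FPKM of 54.8 ± 13.2 (SD, n = 5) from 12.7 ± 3.21 (SD, n = 3), with a log2 fold change of 2.02 (adjusted p = 0.0020, limma). On TPM 11 of the 16 were higher and 0 lower, where 50.0% of all genes were higher. Macrophages are rich in lysosomes, and Csf1r, a macrophage receptor, had 12, 5, 10, 4 and 5 FPKM in the cancers, against 2, 3 and 2 in the controls, for a log2 fold change of 1.21 (adjusted p = 0.032, limma). The summed FPKM of the 9 leukocyte markers found in the table ran from 110 to 587 in the cancers and from 67 to 222 in the controls, with 1 of 6 tested genes higher on FPKM (16.2% of all genes) and Ncr1 listed at 0 throughout. The upper ends of both ranges were mostly S100a8, a neutrophil gene, with 549 FPKM in cancer 4 and 199 in control 3, which did not pass the test (log2 fold change -0.39, adjusted p = 0.86, limma). The part of leukocytes in the Gusb level was not tested.

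Tbp had the lowest level of the 8, with FPKM of 11, 8, 11, 9 and 7 in the cancers, against 7, 6 and 5 in the controls. Cancer 5 equalled control 1, and the other cancers lay above every control. At these levels 1 unit of rounding is a large step. The log2 fold change was 0.53 (SE 0.18, adjusted p = 0.056, limma), and passed the threshold without cancer 5 (0.62, adjusted p = 0.035, limma). On TPM, Tbp had 27.3, 13.9, 25.1, 16.1 and 15.7 in the cancers, against 7.32, 6.76 and 5.04 in the controls, with no overlap. It rose on that scale by a log2 fold change of 1.45 (SE 0.28, adjusted p = 0.0037, limma).

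The 13 TAF subunits of TFIID and the TBP-like gene Tbpl1 were read beside Tbp. On FPKM 0 of 14 passed the test in limma (2 with an unadjusted p under 0.05), and the median log2 fold change was 0.08. Taf1, the largest subunit of the complex, had the largest log2 fold change among them, at 0.59 (adjusted p = 0.25, limma). Over all genes 34.5% were called on FPKM. On TPM 12 of the 14 were higher, with a median of 0.92, where 50.0% of all genes were higher and their median was 0.81.

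Ywhaz, 14-3-3ζ, had FPKM of 133, 236, 165, 188 and 177 in the cancers, against 339, 263 and 292 in the controls, without overlap. It fell by 0.74 on the log2 scale (SE 0.21, adjusted p = 0.028, limma). The call was lost without cancer 3 (adjusted p = 0.062, limma) or without any control (adjusted p of 0.104, 0.059 and 0.076 without control 1, 2 and 3, limma). It was also lost with quantile normalization (-0.21, adjusted p = 0.31, limma) and with the same sum without the 10 most abundant genes (-0.34, adjusted p = 0.12, limma). On TPM, Ywhaz had the lowest spread of the 8 genes, with 330, 411, 376, 336 and 397 in the cancers, against 355, 296 and 294 in the controls. The groups overlapped there and the log2 fold change was 0.23 (95% interval -0.13 to 0.59, adjusted p = 0.23, limma).

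Of the 6 other 14-3-3 genes, 0 were higher and 1 lower on FPKM. The lower gene was Ywhab, 14-3-3β, with 81.4 ± 12.1 (SD, n = 5) in the cancers, against 129 ± 15.6 (SD, n = 3) in the controls, for a log2 fold change of -0.66 (adjusted p = 0.017, limma). Sfn, the epithelial 14-3-3σ, had 1, 79, 37, 146 and 53 in the cancers, against 148, 125 and 169 in the controls and did not pass (log2 fold change -2.10, adjusted p = 0.22, limma). Of all genes 16.2% were higher and 18.3% lower on FPKM. On TPM 4 of the 6 were higher and 0 lower, where 50.0% of all genes were higher.

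Gapdh, Hprt and Ppia formed a middle group with small negative values on FPKM that did not pass the test. Gapdh had FPKM of 377, 651, 403, 806 and 534 in the cancers, against 636, 673 and 716 in the controls. The controls were close together, and the cancers spread on both sides of them (log2 fold change -0.34, 95% interval -1.001 to 0.32, adjusted p = 0.37, limma). Ppia had 938, 1831, 1091, 1793 and 903 in the cancers, against 1857, 1568 and 1325 in the controls. Cancers 2 and 4 were within the range of the controls and the other 3 below it (log2 fold change -0.33, 95% interval -1.11 to 0.45, adjusted p = 0.46, limma). Hprt had 71, 92, 83, 102 and 75 in the cancers, against 116, 101 and 95 in the controls. Its groups overlapped only through cancer 4 (log2 fold change -0.30, 95% interval -0.67 to 0.062, adjusted p = 0.16, limma).

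All 3 reversed in sign on TPM. Hprt had TPM of 176, 160, 189, 182 and 168 in the cancers, against 121, 114 and 95.7 in the controls. The groups did not overlap, and Hprt rose on this scale by a log2 fold change of 0.67 (SE 0.15, adjusted p = 0.0066, limma). Gapdh had 934, 1134, 919, 1440 and 1198 in the cancers, against 665, 759 and 721 in the controls, and rose by a log2 fold change of 0.63 (SE 0.20, adjusted p = 0.029, limma). That call was lost without cancer 5 (adjusted p = 0.056, limma) and without any control (adjusted p of 0.096, 0.066 and 0.073 without control 1, 2 and 3, limma). Ppia had 2324, 3191, 2487, 3203 and 2026 in the cancers, against 1943, 1767 and 1335 in the controls, without overlap, and its log2 fold change of 0.65 was at the threshold (95% interval 0.089 to 1.21, adjusted p = 0.051, limma). Without cancer 5 the adjusted p of Ppia was 0.0499 (limma).

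The pathways around these 3 genes are given against the shares of all genes, of which 16.2% were higher and 18.3% lower on FPKM and 50.0% were higher on TPM. Among 15 other glycolysis genes, 2 were higher and 6 lower on FPKM, with a median log2 fold change of -0.59. Eno2, the neuronal enolase, had 8, 5, 9, 6 and 7 in the cancers, against 0, 1 and 1 in the controls, for a log2 fold change of 2.31 (adjusted p = 0.0019, limma). Eno1, the ubiquitous enolase, fell to a mean FPKM of 52.0 ± 21.1 (SD, n = 5) from 166 ± 40.5 (SD, n = 3), and Ldha, lactate dehydrogenase A, to 227 ± 122 from 564 ± 86.5 (log2 fold changes -1.72 and -1.48, limma). On TPM 5 of the 15 were higher and 0 lower. Eno2 is also among the 9 neuroendocrine markers, which were all higher in the cancers on both scales, with summed FPKM of 8198 to 18382 against 127 to 192. Of 8 other genes of purine salvage and breakdown, 0 were higher and 2 lower on FPKM. Ada, adenosine deaminase, had 4, 4, 6, 9 and 19 in the cancers, against 63, 85 and 59 in the controls, for a log2 fold change of -3.09 (adjusted p = 0.0034, limma), and Xdh, xanthine dehydrogenase, was the other. On TPM 2 of the 8 were higher and 1 lower. Ada was lower there too (-2.22, adjusted p = 0.0067, limma), whereas Xdh did not pass (-0.52, adjusted p = 0.33, limma). Of 12 other cyclophilins, 0 were higher and 1 lower on FPKM and 8 higher on TPM. The lower gene was Ppif, the mitochondrial cyclophilin D, with 10, 84, 23, 53 and 25 in the cancers, against 125, 94 and 120 in the controls, for a log2 fold change of -1.84 (adjusted p = 0.0499, limma).

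Read against the whole table, the reference genes were called at a share near that of all genes. On FPKM 3 of the 8 (37.5%) were called, 1 higher and 2 lower, where 34.5% of all tested genes were, 16.2% higher and 18.3% lower. On TPM 4 of the 8 (50.0%) were called, all higher, where 53.7% of all tested genes were called, 50.0% higher and 3.68% lower. On FPKM the cancers were apart from the controls in 4 of the 8, of which 1 was higher and 3 lower, whereas 34.1% of all genes were apart, 14.4% higher and 19.8% lower. On TPM 5 of the 8 were apart, all higher, whereas 54.1% of all genes were apart, 49.6% higher and 4.51% lower. Rescaling multiplies a column by 1 factor, so it shifts all genes by nearly the same amount and by construction leaves their order and their distance from the median of all genes almost as they were. Relative to that median, Gusb stood at 1.36 on FPKM and 1.47 on TPM, Tbp at 0.57 and 0.64, Hprt at -0.26 and -0.14, Ppia at -0.29 and -0.16, Gapdh at -0.30 and -0.18, Ywhaz at -0.70 and -0.58, Actb at -1.08 and -0.95, and Actg1 at -1.54 and -1.42.

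**Figure D2:**
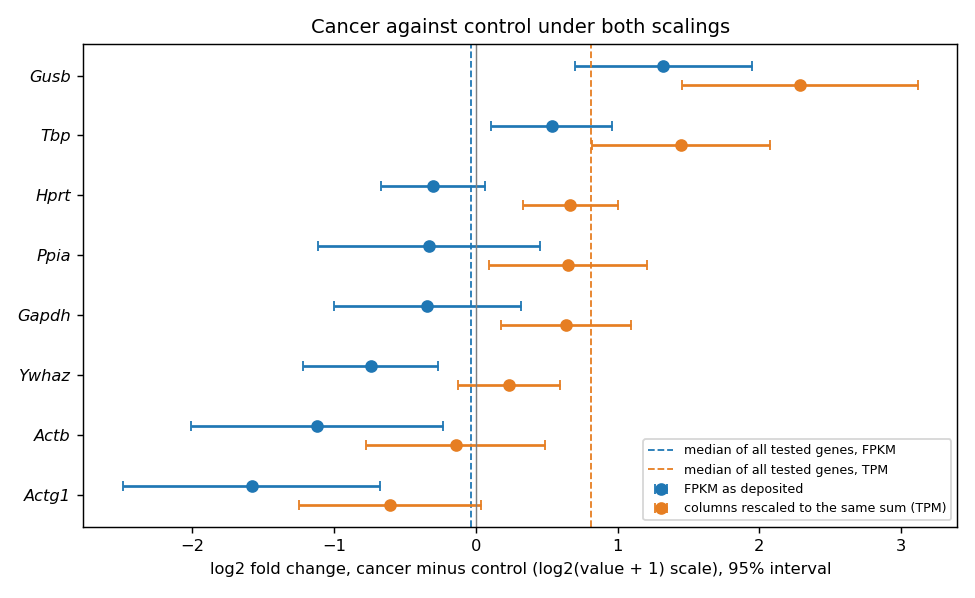
Log2 fold change (cancer minus control, log2(value + 1) scale) of the 8 genes with its 95% interval from limma, on FPKM as deposited and on TPM, with dashed lines at the median of all tested genes (-0.04 and 0.81). Rescaling shifts all 8 genes to the right together, and on both scales the intervals of Gusb and Tbp lie above the median line and those of Actb, Actg1 and Ywhaz below it.

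Spread over all 8 samples ranked the genes differently on the 2 scales. On FPKM, Hprt had the lowest spread of the set, with a highest value 1.63 times the lowest, a coefficient of variation of 16.3% and an SD of 0.24 for log2(FPKM + 1). Of all tested genes, 11.1% had a lower SD. Tbp, Gapdh, Ppia and Ywhaz followed with SDs of 0.36, 0.39, 0.43 and 0.46, near the middle of the distribution or below it (30.0%, 35.2%, 40.9% and 43.1% of genes were lower). Actb (0.76), Gusb (0.78) and Actg1 (0.96) were among the more variable genes, with 73.1%, 74.2% and 82.7% of all tested genes lower. The highest Actg1 value was 6.17 times the lowest, and for Gusb and Actb this ratio was 4.33 and 3.74.

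After rescaling, Ywhaz moved to the front, with an SD of 0.18, a highest value 1.40 times the lowest and a coefficient of variation of 12.5%. Only 0.947% of tested genes had a lower SD. Actb (0.35), Hprt (0.36), Gapdh (0.39), Ppia (0.43) and Actg1 (0.47) lay within 11.8% to 24.5% of the distribution. Tbp (0.82) and Gusb (1.29) were the most variable of the set, with 61.1% and 85.2% of genes lower and highest values 5.41 and 10.3 times the lowest. Within the 5 cancers alone, Hprt had the lowest SD on both scales (0.21 on FPKM and 0.093 on TPM). The geometric mean of the 8 genes was 398 to 426 TPM in the cancers, against 228 to 278 TPM in the controls. On FPKM it was 165 to 244 in the cancers, against 226 to 266 in the controls.

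**Figure D3:**
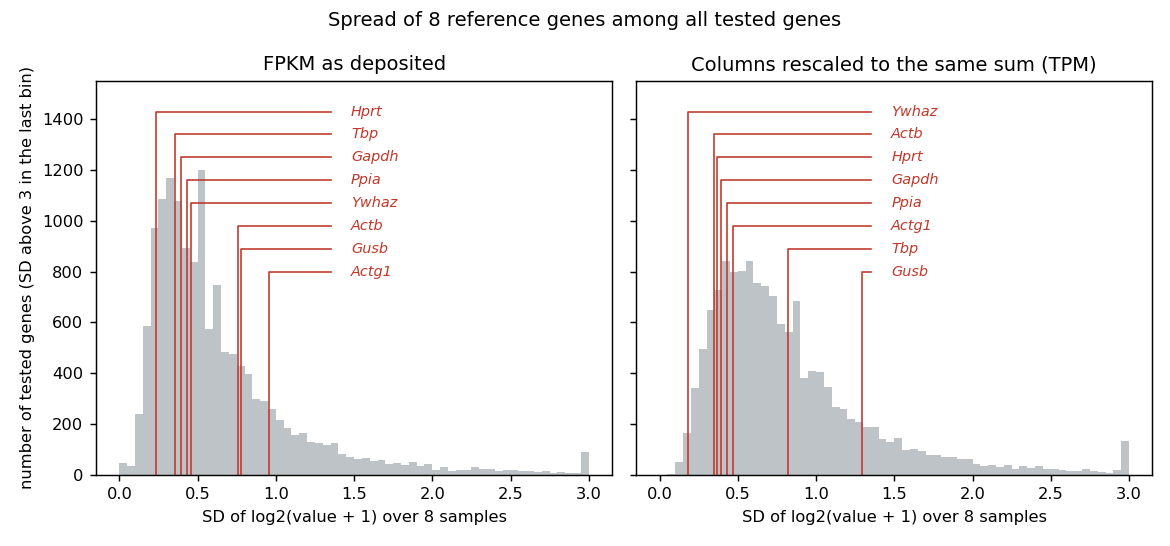
Histogram of the SD of log2(value + 1) over the 8 samples for all tested genes, on FPKM (left) and TPM (right), with lines at the 8 reference genes. Hprt is the steadiest of the 8 on FPKM (SD 0.24) and Ywhaz on TPM (SD 0.18), and Actb, Gusb and Actg1 lie farthest to the right on FPKM.

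A ratio of 2 genes within a sample is nearly free of the scaling of that sample, so all 28 pairs were compared. The ratios among Gapdh, Ppia and Hprt changed least. From controls to cancers the mean log2 ratio differed by -0.01 for Gapdh/Ppia, by -0.04 for Gapdh/Hprt and by 0.03 for Hprt/Ppia, with SDs over all 8 samples of 0.28, 0.26 and 0.24. The log2 ratio of Hprt to Ppia was -3.71, -4.30, -3.70, -4.12 and -3.57 in cancers 1 to 5, against -3.99, -3.94 and -3.79 in the controls, and the groups overlapped fully. The largest difference was that of Actg1/Gusb, whose log2 ratio was 3.16, 5.47, 3.90, 5.53 and 4.06 in the cancers, against 7.81, 7.19 and 6.99 in the controls. It fell by 2.90 in the mean, with the cancers 2 and 4 nearest to the controls. The ratio of the 2 actins did not pass the exact permutation test (p = 0.071, adjusted p = 0.095), with a mean log2 Actb/Actg1 of -0.03 ± 0.29 (SD, n = 5) in the cancers, against -0.49 ± 0.06 (SD, n = 3) in the controls, and cancer 5 lay inside the range of the controls.

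In the two-sided exact permutation test, 18 of the 28 pairs had an unadjusted p under 0.05, and 0 passed after adjustment over the 28 pairs, where the smallest adjusted p was 0.056. The smallest unadjusted p that 5 against 3 samples allow is 0.018. Cancers and controls were apart in 18 of the 28 ratios (64.3%), and among all pairs of tested genes the ratio did not overlap for 41.0%. The 28 ratios are not independent, because they come from 8 genes and each gene enters 7 of them. Hence 64.3% cannot be read against 41.0% as 28 separate results. Gusb and Actg1 had 6 pairs without overlap each, Hprt and Tbp 5, Actb, Ppia and Ywhaz 4, and Gapdh 2. By the mean SD of its 7 ratios over the 8 samples, Hprt was the most even partner (0.52), followed by Ppia (0.54), Ywhaz (0.55), Gapdh (0.55), Actb (0.68), Tbp (0.78), Actg1 (0.85) and Gusb (1.18). These values are descriptions, and the first 4 lay close together.

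**Figure D4:**
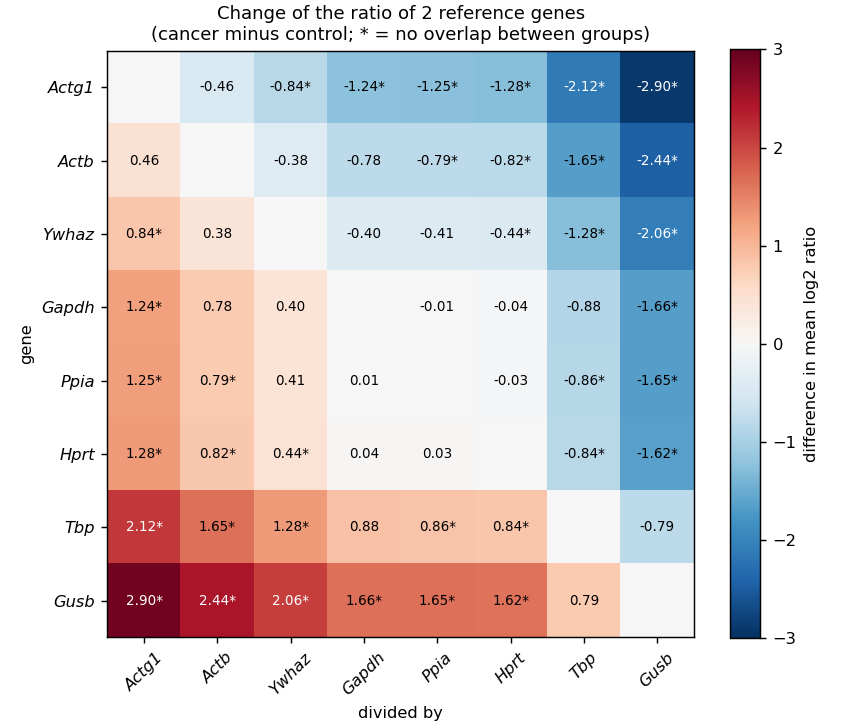
Difference between cancers and controls in the mean log2 ratio of each pair of reference genes (row gene divided by column gene), with a star where the groups do not overlap. The block of Gapdh, Ppia and Hprt is near 0 (-0.04 to 0.04), and Actg1 over Gusb is at -2.90.

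As an alternative chosen after the data were seen, each column was divided by 1 of the 8 genes and all other genes were tested again with limma. Division by a gene subtracts its own difference between groups from every other gene and carries its variation between samples into each of them. These splits therefore depend on both, are a description and add no evidence on the 8 genes. Divided by Actg1, 8200 genes were higher and 237 lower in the cancers (58.8% of genes called), and by Actb 3761 were higher and 300 lower (28.3% called). Divided by Gusb, 1167 were higher and 9298 lower (72.9% called), and by Tbp 1478 were higher and 5258 lower (46.9% called). Gapdh, Ppia and Hprt gave more even splits. Divided by Gapdh, 1690 were higher and 1242 lower (20.4% called), by Ppia 1566 and 1027 (18.1% called), and by Hprt 2534 and 1442 (27.7% called). Ywhaz gave 4355 higher and 797 lower (35.9% called). The geometric mean of all 8 genes gave 2347 higher and 1523 lower (27.0% called). On FPKM as deposited the split was 2326 higher and 2622 lower, and on TPM 7176 higher and 528 lower.

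**Figure D5:**
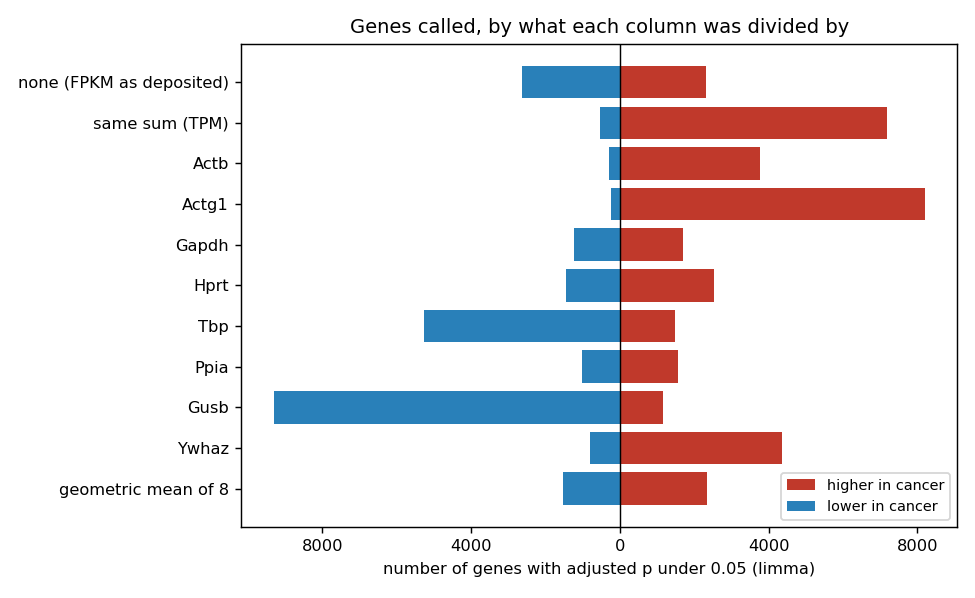
Number of genes called higher (right) or lower (left) in the cancers by limma at an adjusted p under 0.05, for FPKM as deposited, TPM, and columns divided by each reference gene or by the geometric mean of the 8. With Actg1 97.2% of calls are higher in the cancers, and with Gusb 11.2%.

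Further genes in use as references were read in the same way. Of 24, 10 were called on FPKM (41.7%), 2 higher and 8 lower, with a median log2 fold change of -0.44, where 34.5% of all genes were called. On TPM 12 were called, 10 higher and 2 lower, where 53.7% of all genes were called. The 3 with the largest change on FPKM were all lower. Alas1, the first enzyme of heme synthesis, had 11, 33, 13, 31 and 17 in the cancers, against 75, 54 and 67 in the controls. G6pdx, of the pentose phosphate pathway, and Atp5b, the β subunit of mitochondrial ATP synthase, had log2 fold changes of -1.70 and -1.55 (adjusted p of 0.037 and 0.0076, limma). Of 10 genes proposed for their even level across tissues, 0 were higher and 3 lower on FPKM (Rab7, Chmp2a and Vcp), and 7 were higher on TPM, against 18.3% of all genes lower on FPKM and 50.0% higher on TPM.

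The 3 steadiest of these genes on FPKM each had a lower SD than any of the 8. Reep5, which shapes the endoplasmic reticulum, had 57, 57, 55, 55 and 52 FPKM in the cancers, against 50, 52 and 61 in the controls, an SD of 0.090 for log2(FPKM + 1). Ube2d2a, a ubiquitin-conjugating enzyme, and Psmb4, a proteasome subunit, followed with 0.14 and 0.20. All 3 rose on TPM, with log2 fold changes of 0.99, 1.07 and 0.81 (adjusted p of 0.0027, 0.0042 and 0.0041, limma). On that scale the median of all tested genes was 0.81, so the 3 lay at or little above it. On TPM the lowest SDs were those of Sdha (0.19), a subunit of succinate dehydrogenase, and Chmp2a (0.19), close to that of Ywhaz (0.18). On FPKM Sdha fell by 1.12 on the log2 scale (adjusted p = 0.0044, limma). The SDs of these genes on the other scale were higher, at 0.54, 0.62 and 0.44 on TPM for Reep5, Ube2d2a and Psmb4 and at 0.62 and 0.43 on FPKM for Sdha and Chmp2a.

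Genes whose FPKM followed those of the reference genes most closely over the 8 samples were found by Pearson's r of log2(FPKM + 1), as a description that shares the scaling of each column. For Actg1 these were Pla2g16, Eif2d and Nipal2 (r of 0.998 each, n = 8), and for Actb Stoml2, Use1 and Mrpl32 (0.990, 0.989 and 0.988). Eif2d had 16, 24, 18, 22 and 19 FPKM in the cancers, against 30, 28 and 27 in the controls. For Ywhaz they were Tagln2, Cnnm4 and Akr1a1 (0.994, 0.994 and 0.993), for Gapdh Nr0b2, Ring1 and Csda (0.985, 0.984 and 0.984), for Ppia Fcf1, Tomm22 and Pin4 (0.982, 0.982 and 0.981), and for Hprt Rai14, Vdac3 and Nudt9 (0.980 each). Vdac3, a mitochondrial channel, had 64, 97, 74, 100 and 71 FPKM in the cancers, against 130, 102 and 91 in the controls. For Gusb they were Ccdc92, Tubgcp2 and Marveld3 (0.993, 0.992 and 0.991), and Marveld3, a tight junction protein, had 22, 9, 15, 8 and 17 in the cancers, against 2, 3 and 3 in the controls. For Tbp they were Fbxo5, Fam118a and Orc5 (0.994, 0.975 and 0.975), of which Orc5, a subunit of the origin recognition complex, had 16, 10, 16, 12 and 9 in the cancers, against 10, 9 and 6 in the controls.

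Sums of parietal and mucous cell markers are given beside the levels of the reference genes. The summed FPKM of 8 parietal cell markers was 9005 to 14034 in the controls and 12, 2181, 310, 3479 and 474 in cancers 1 to 5, and that of 7 pit and neck mucous markers 146267 to 214383 in the controls and 692, 74468, 5273, 46371 and 15960 in the cancers. Cancers 2 and 4, the highest of the cancers in both sums, were on FPKM also the highest in Actb, Actg1, Ppia, Gapdh, Hprt and Ywhaz and the lowest in Gusb, and had the largest FPKM sums (573858 and 559720). On TPM they remained the highest in Actb, Actg1 and Ppia and the lowest in Gusb, but not in the others, since Hprt was lowest in cancer 2, and cancer 5 exceeded cancer 2 in Gapdh and cancer 4 in Ywhaz. In Tbp cancers 2 and 4 were neither the highest nor the lowest pair on FPKM. The summed squamous markers were 2145 to 3703 in the controls and 1 to 1700 in the cancers. The chief cell markers summed to 3560 to 31546 in the controls and 12 to 7697 in the cancers. The highest sums rest on Pgc, pepsinogen C, which had 28832 FPKM in control 1, 4546 in cancer 2 and 6762 in cancer 4 and was listed at 0 in controls 2 and 3. The sums of controls 2 and 3 (5101 and 3560) were mostly Gif (4982 and 3374), which is also in the parietal list. Gif is counted in both sums, so neither is specific to its cell type. In the parietal sums it gave 2581, 4982 and 3374 FPKM in controls 1 to 3. In cancers 1 to 5 it gave 0, 520, 36, 434 and 178. Atp4a, Atp4b, Gif and Muc5ac were listed at 0 in cancer 1. The 8 proliferation markers summed to 233 to 414 in the cancers, against 142 to 192 in the controls, with 5 of 8 higher on FPKM (16.2% of all genes) and 8 of 8 on TPM (50.0% of all genes). The 6 hepatocyte markers summed to 669 to 2027 in the cancers and 67 to 95 in the controls, of which Ttr, transthyretin, held 455 to 2011 and 66 to 94. In cancer 5 Ttr was 455 of a sum of 911, and Alb, albumin, had 266. Alb had 16, 18, 58 and 1 in cancers 1 to 4 and 1 in each control. Only 2 of the 6 markers passed the filter on low values. The part of cell composition in the levels of the 8 genes was not tested.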

How the data were processed

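RNA of 5 SCJ cancers and 3 control SCJ samples was sequenced. The authors computed FPKM for mm10 genes with cuffquant and cuffnorm, and the submitters' processing notes name cutadapt 1.8, TopHat2 2.0.13 and Cuffnorm 2.2.1. The deposited FPKM are rounded to whole numbers (100% of values), so they were treated as a score and not as counts. The cuffnorm normalization option is not given in the sources used here, and depth is unknown.

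A gene entered the tests if 3 or more samples had an FPKM of 1 or more (14357 genes). limma 3.58.1 (eBayes with trend, R 4.3.3) was run on log2(FPKM + 1) and again on log2(TPM + 1), with Benjamini-Hochberg adjustment over all tested genes and a threshold of 0.05. Single values and the 28 pair ratios were compared by exact permutation over the 56 splits into 5 and 3. Of the 185 entries of the gene lists, 184 had a row. Besides the 8 members, up to 3 genes of each list with the largest change, the 3 steadiest other references per scale and the 3 genes most like each member (mean FPKM of at least 5) were named, except that some of these genes are not reported here. Xdh, Csf1r, Tbpl1, Ncr1, Actc1, Acta1, Atp4a, Atp4b, Gif, Muc5ac, Pgc, Ttr, Alb and S100a8 were named after their values were seen. The members and lists were chosen with earlier results of these data known. The fit was tested on simulated data before use. Alternatives were other pseudocounts (0.1 and 10), filters, scalings, no trend, array weights, a replicate block and leaving out each sample.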

Additional observations from a re-analysis of the deposited data

How the results depend on the processing

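The direction of Gapdh, Hprt, Ppia and Ywhaz changed with the scale. In place of the log2 fold changes on FPKM, TPM gave -0.61 for Actg1, 0.63 for Gapdh, 0.67 for Hprt, 0.65 for Ppia, 0.23 for Ywhaz and 1.45 for Tbp. Quantile normalization gave 0.17, 0.19 and 0.39 for Gapdh, Hprt and Ppia and -0.21 for Ywhaz, whose call was lost, and moved Actb to -0.53 and Actg1 to -0.90. The same sum without the 10 most abundant genes gave 0.058, 0.094 and 0.072 for Gapdh, Hprt and Ppia, -0.34 for Ywhaz, whose call was again lost, -0.72 for Actb and 0.89 for Tbp, past the threshold. A pseudocount of 10 gave 0.26 for Tbp on FPKM and 0.83 on TPM. Median-of-ratios scaling gave 0.62 for Tbp, also past the threshold. Actb passed with a mean FPKM of at least 5 or without trend (-1.12 each) and with array weights (-1.26), as did Hprt (-0.32) and Tbp (0.60) with array weights. On TPM, Ppia passed with a mean FPKM of at least 5 or without trend (0.65 each) or array weights (0.52), and Actg1 with array weights (-0.79).

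The count of 4948 called genes was 7704 on TPM and 8148 with array weights (6 members called), and with columns divided by Actg1, Gapdh, Ppia or Gusb 8437, 2932, 2593 or 10465. The split of 2326 higher and 2622 lower became 7176 and 528 on TPM, 3063 and 1363 without the 10 most abundant genes, and 1244 and 2275 at a mean FPKM of at least 5. On TPM a separate fit with that filter called 5037 genes, in place of 7704. Leaving out each sample gave 2490 to 5252 genes and 1 to 4 members on FPKM, and 4881 to 8612 genes and 3 to 5 members on TPM, with the fewest without a control on both scales (2490, 2643 and 2815 genes on FPKM and 4951, 5137 and 4881 on TPM without control 1, 2 and 3). Values then ran from -1.32 to -0.96 for Actb, -1.78 to -1.39 for Actg1, 0.43 to 0.64 for Tbp and -0.85 to -0.64 for Ywhaz on FPKM, and from -0.27 to 0.0093 for Actb, -0.74 to -0.47 for Actg1, 0.54 to 0.70 for Gapdh and 0.49 to 0.76 for Ppia on TPM. For all of these changes the cause was not tested.

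Samples share replicate numbers across groups, but the labels do not say that the numbers pair them. Deviations of same-numbered samples correlated at -0.02, -0.19 and -0.10, and no cancer correlated best with its own number. So few values cannot exclude a pairing. The replicate block gave 1534 genes and 0 members on FPKM and 5101 genes and 2 members on TPM, with -1.72 for Actg1, 1.43 for Gusb and -0.77 for Ywhaz on FPKM and 0.47 for Gapdh and 0.67 for Hprt on TPM, none past the threshold. Of the pair ratios, 0 of 28 passed with no pseudocount or without any sample, which says nothing on stability, since the smallest unadjusted p was 0.018 with all samples, 0.029 without a cancer and 0.048 without a control.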
